A study of Mus musculus with 12 samples.

Results

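The 10 genes described here are Sp5, Axin2, Lef1, Tcf7, Nkd1, Nkd2, Notum, Rnf43, Znrf3 and Frat2, grouped as target and feedback genes of the Wnt pathway. Frat2 is in the set as a GSK3-binding component of the pathway and is not taken here as a readout of it. They were taken by their gene symbols from count files that list 24391 symbols. All 10 were among the 15958 genes that passed the expression filter and were tested. The set was selected on results of these same libraries, in which Sp5 had stood out by its regional fold change and its fold change under tamoxifen, and the other 9 genes belong to the same pathway. Their levels, fold changes and calls are therefore a description of the libraries, and no p-value is given for them.

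RNA was sequenced from palatal shelves of C57BL/6 mouse embryos at E13.5, when the shelves are paired outgrowths that have not yet fused into the palate. The 4 groups, each of 3 libraries, were the anterior part under tamoxifen (labelled TAM_AP), the anterior part of controls (con_AP), the posterior part under tamoxifen (TAM_PP) and the posterior part of controls (con_PP). Tamoxifen, a drug that blocks or activates oestrogen receptors depending on the tissue, is given in the series title as a cause of cleft palate in mice. The labels state no dose, time or vehicle and do not say whether libraries come from separate embryos or litters, so p-values reflect only how far these samples spread.

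In canonical Wnt signalling, a secreted Wnt protein engages Frizzled and Lrp co-receptors at the cell surface, which stops the destruction complex from degrading beta-catenin. Beta-catenin then enters the nucleus and activates genes together with DNA-binding proteins of the TCF/LEF family. Several of the activated genes act back on the pathway, mostly as brakes, so their transcripts are widely used as readouts of Wnt activity. Loss of pathway genes in mice can cause clefts of the lip or palate.

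TCF/LEF proteins bind DNA around a short core, and the windows before the start sites of the members were searched for CTTTGA and CTTTGT on both strands. The RefSeq promoter table, on GRCm38.p6, held 13 windows of 250 bases upstream of a start site for 8 members, and no window was matched for Notum and Znrf3. Of all 32851 windows in the table, 27.6% held at least 1 match. Sp5 had 4 matches in its window, which only 0.0944% of all windows reach or exceed, at 221, 212, 204 and 104 bases before the start site. The fourth of the 4 Lef1 windows held 3 matches, a number that 0.776% of windows reach or exceed. That share is per window, and this window had the most matches of the 4. It lies downstream of Lef1 windows 1 to 3 (starting at chr3:131110047, 131110073 and 131112541), which held 0. The remaining 11 member windows, these Lef1 windows among them, held 0. The windows of Sp5 (chr2:70474673-70474922, plus strand), Lef1 (chr3:131156044-131156293, plus strand) and Axin2 (chr11:108920099-108920348, plus strand) are shown because they hold 4, 3 and 0 matches, with the matches in capitals.
Sp5: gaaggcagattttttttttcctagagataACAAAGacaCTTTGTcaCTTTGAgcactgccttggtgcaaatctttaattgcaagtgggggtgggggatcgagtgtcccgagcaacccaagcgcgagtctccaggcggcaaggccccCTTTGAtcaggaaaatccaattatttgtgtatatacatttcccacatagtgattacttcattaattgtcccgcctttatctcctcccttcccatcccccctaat
Lef1: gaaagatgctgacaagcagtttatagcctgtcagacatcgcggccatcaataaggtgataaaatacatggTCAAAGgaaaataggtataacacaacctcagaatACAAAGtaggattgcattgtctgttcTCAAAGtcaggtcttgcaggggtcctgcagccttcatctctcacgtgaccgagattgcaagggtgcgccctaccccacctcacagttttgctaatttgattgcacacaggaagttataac
Axin2: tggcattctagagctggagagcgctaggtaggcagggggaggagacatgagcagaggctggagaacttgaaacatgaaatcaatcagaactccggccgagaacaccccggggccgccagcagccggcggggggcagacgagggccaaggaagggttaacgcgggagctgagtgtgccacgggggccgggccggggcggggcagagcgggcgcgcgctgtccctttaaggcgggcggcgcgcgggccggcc
The first 3 matches of Sp5 lie close together, 2 of them as CTTTGT on opposite strands, and the fourth stands apart nearer to the start site. A match describes these letters in this window and does not show that a factor binds there.

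Sequencing gave between 39.4 M and 73.0 M counts a library, and no library but the deepest exceeded 50.2 M; the deepest was replicate 1 of the tamoxifen-treated anterior group. The dissected regions matched their labels: the anterior markers Shox2 and Msx1 averaged 453 and 218 CPM anteriorly, against 18.1 and 21.0 CPM posteriorly, under tamoxifen. The posterior markers Meox2 and Tbx22 averaged 9.02 and 6.02 CPM anteriorly, against 133 and 36.0 CPM posteriorly, in the same treatment group. CPM is a gene's count relative to the size of its library, here after scaling by the trimmed mean of M-values (TMM). A gene was called where the quasi-likelihood test of edgeR gave an adjusted p under 0.05 (Benjamini-Hochberg, over all 15958 genes). In bulk tissue, fewer cells of a type and less RNA per cell cannot be told apart.

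Fold changes under tamoxifen followed transcript length and GC content across genes, which bears on several members. Over 15845 genes with both values, Spearman's rho of the log2 fold change was 0.538 with length and -0.524 with GC content in the anterior palate, and 0.475 and -0.407 in the posterior palate. For anterior against posterior palate, rho was -0.298 with length and 0.189 with GC content in controls. Under tamoxifen these regional values were 0.004 and -0.177. Sp5, Notum and Frat2 have short, GC-rich transcripts (2100, 2212 and 2161 bases; 62.0, 59.5 and 60.2% GC), against medians of 3307 bases and 50.0% GC. Znrf3, at 6311 bases, is the longest member. Fold changes of the members under tamoxifen are therefore given also after this trend was removed per library; its cause was not tested.

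**Figure D1:**
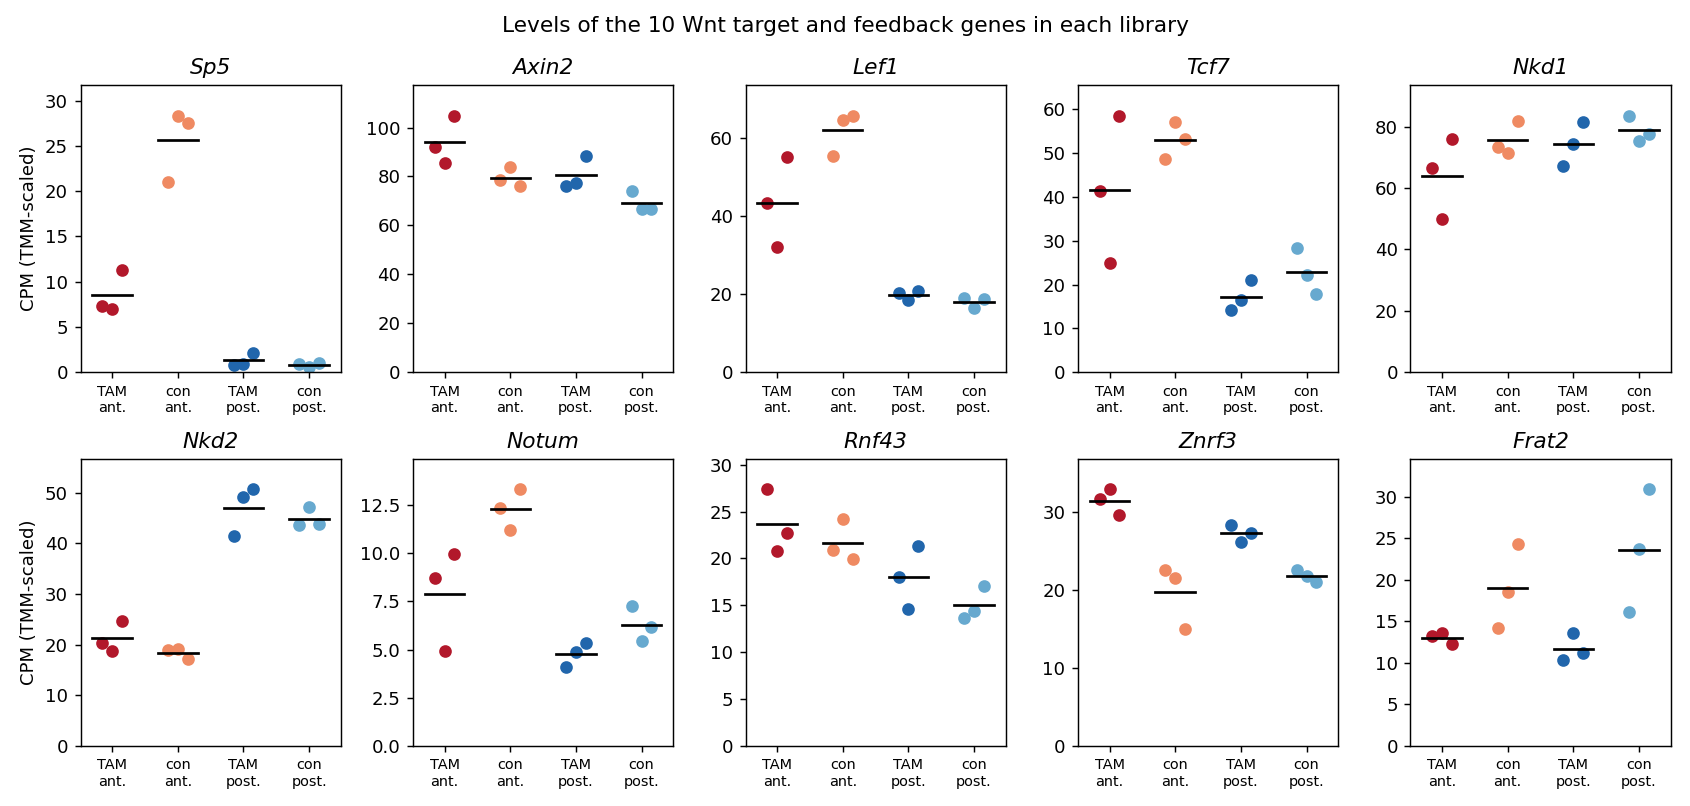
TMM-scaled CPM of the 10 members in each of the 12 libraries, by group, with points for libraries and horizontal lines for group means. Anterior Sp5 lies between 6.92 and 11.3 CPM under tamoxifen and between 21.0 and 28.3 CPM in controls, and all 6 posterior libraries have 2.14 CPM or less.

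Set side by side per kilobase of transcript, the members of the anterior control shelves spanned a range from Tcf7 to Znrf3. Tcf7 had 21.5 ± 1.75 CPM per kilobase (SD, n = 3 here and below), Axin2 18.6 ± 0.926, Nkd1 18.5 ± 1.38, Lef1 17.0 ± 1.54 and Sp5 12.2 ± 1.92 CPM per kilobase. Lower stood Frat2 with 8.80 ± 2.34, Notum with 5.56 ± 0.476, Rnf43 with 5.02 ± 0.519, Nkd2 with 4.59 ± 0.276 and Znrf3 with 3.12 ± 0.653 CPM per kilobase. Neighbours in this order whose mean ± SD ranges overlapped were Axin2 and Nkd1, Nkd1 and Lef1, Sp5 and Frat2, Notum and Rnf43, and Rnf43 and Nkd2. Under tamoxifen the anterior shelf had Axin2 at the head with 22.1 ± 2.30 CPM per kilobase, and Sp5, with 4.06 ± 1.16, stood above only Notum with 3.56 ± 1.19. Posteriorly Sp5 was the lowest member in both treatments, at 0.609 ± 0.357 CPM per kilobase under tamoxifen and 0.382 ± 0.107 in controls.

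Anterior against posterior shelves, Sp5 was the member with the widest difference, and the TCF/LEF genes Lef1 and Tcf7 and the secreted inhibitor Notum lay on the same side. Nkd2 lay on the other side, and Axin2, the most used transcriptional readout of the pathway, was called in both treatments after removal of the length and GC trend, but not without it. Under tamoxifen 5 of 10 members were called, 4 higher and 1 lower anteriorly, against 17.8% of all genes tested (7.60% higher and 10.2% lower). In controls 6 of 10 were called, 5 higher and 1 lower, against 23.3% (10.2% higher and 13.1% lower). After removal of the trend 7 members were called in each treatment, 6 higher and 1 lower; Axin2 and Rnf43 were gained under tamoxifen and Axin2 in controls. Of all genes, 24.7% were called in that way under tamoxifen (13.8% higher and 10.9% lower) and 26.9% in controls (14.4% higher and 12.5% lower). The members' 3 anterior and 3 posterior values did not overlap for 5 of 10 under tamoxifen, against 33.1% of all genes, and for 7 of 10 in controls, against 41.2%. Nothing is read from these shares, since regional results were known when the members were chosen. Tissue other than palatal mesenchyme also differed by region. Summed skeletal muscle markers were 4.55 to 12.1 CPM anteriorly against 566 to 732 CPM posteriorly under tamoxifen, and 6.58 to 19.2 against 454 to 535 CPM in controls, with all 6 markers lower anteriorly in each treatment. Summed epithelial markers were 829 to 1018 CPM anteriorly against 490 to 644 CPM posteriorly under tamoxifen, and 837 to 1059 against 445 to 489 CPM in controls, with 7 of 8 markers higher anteriorly in each treatment. Summed nasal and olfactory markers were 45.6 to 57.8 CPM anteriorly against 29.3 to 32.5 CPM posteriorly under tamoxifen, and 61.9 to 81.7 against 28.4 to 32.1 CPM in controls, with Neurog1 at 0 throughout and 3 of 5 markers higher under tamoxifen and 4 of 5 in controls. Cartilage markers ran the other way, with sums of 407 to 505 against 1460 to 2097 CPM under tamoxifen and 498 to 560 against 2065 to 2269 CPM in controls, and all 6 markers lower anteriorly in each treatment. The part of these tissues in the members' regional differences was not tested.

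Sp5 encodes a zinc-finger transcription factor of the Sp family that is a direct target of beta-catenin and can dampen other Wnt targets. Under tamoxifen it had 7.35, 6.92 and 11.3 CPM anteriorly in replicates 1, 2 and 3, against 0.781, 0.914 and 2.14 CPM posteriorly. The groups did not overlap, and the fold was 6.72 (log2 2.75, SE 0.32). In controls the anterior values were 21.0, 28.3 and 27.5 CPM, against 0.883, 0.549 and 0.974 CPM posteriorly. Every anterior control library lay far above every posterior one, and the fold was 31.6 (log2 4.98, SE 0.34). Sp8, a relative of Sp5 in the same family, had 2.90 CPM anteriorly against 0.163 CPM posteriorly under tamoxifen (log2 4.10, adjusted p = 1.1e-06 in edgeR with Benjamini-Hochberg adjustment). In controls Sp8 had 2.54 against 0.164 CPM (log2 3.91, adjusted p = 2.4e-06 in the same test). Sp8 also stands in the list of nasal and olfactory markers, and its posterior values rest on 2 to 16 counts a library.

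Lef1 and Tcf7 encode HMG-box proteins that carry beta-catenin to DNA and are themselves Wnt targets. Lef1 had 43.4, 32.1 and 55.1 CPM anteriorly against 20.4, 18.5 and 20.7 CPM posteriorly under tamoxifen, a 2.19-fold difference (log2 1.13, SE 0.15). In controls it had 55.6, 64.8 and 65.8 CPM anteriorly against 19.1, 16.5 and 18.7 CPM posteriorly, a 3.43-fold difference (log2 1.78, SE 0.15). The posterior Lef1 values of both treatments thus lay in a narrow band from 16.5 to 20.7 CPM, below every anterior value. Tcf7 had 41.4, 24.9 and 58.6 CPM anteriorly against 14.3, 16.4 and 21.1 CPM posteriorly under tamoxifen (log2 1.27, SE 0.29). In controls it had 48.6, 57.2 and 53.3 CPM against 28.3, 22.2 and 17.8 CPM (log2 1.22, SE 0.29). The Tcf7 groups did not overlap in either treatment, and the call under tamoxifen was lost without posterior tamoxifen replicate 1 (log2 1.15) or replicate 2 (1.24). Tcf7l2, another TCF of the same family, lay on the other side: it had 64.7 CPM anteriorly against 98.7 CPM posteriorly under tamoxifen (log2 -0.61, edgeR adjusted p = 3.9e-05).

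Among the extracellular and membrane brakes, Notum removes the lipid from Wnt proteins, and Rnf43 and Znrf3 are ubiquitin ligases that clear Frizzled receptors from the cell surface. Notum had 8.73, 4.92 and 9.96 CPM anteriorly against 4.10, 4.89 and 5.35 CPM posteriorly under tamoxifen (log2 0.72, SE 0.21), where anterior replicate 2 lay inside the posterior range. That call was lost without anterior replicate 1 (log2 0.63) or 3 (0.52) and without posterior replicate 1 (0.62) or 2 (0.74). In controls Notum had 12.4, 11.2 and 13.3 CPM anteriorly against 7.26, 5.47 and 6.18 CPM posteriorly, without overlap (log2 0.96, SE 0.20). Rnf43 had 27.4, 20.8 and 22.7 CPM anteriorly against 18.0, 14.7 and 21.4 CPM posteriorly under tamoxifen (log2 0.39, SE 0.14). It overlapped there and was not called, except after removal of the trend (0.51) or without anterior replicate 2 (0.48) or posterior replicate 3 (0.53). In controls it had 20.9, 24.2 and 19.9 CPM anteriorly against 13.7, 14.3 and 17.1 CPM posteriorly, without overlap (log2 0.53, SE 0.14). This call was lost without anterior control replicate 2 (log2 0.41) or posterior control replicate 1 (0.46) or 2 (0.49). Znrf3, its relative, was not called by region, with log2 differences of 0.20 under tamoxifen and -0.15 in controls (SE 0.12 each). The control value turned to 0.02 without anterior control replicate 3.

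Nkd1 and Nkd2, relatives of Drosophila naked cuticle, bind Dishevelled inside the cell and restrain the pathway, and they differed from each other by region. Nkd2 had 20.2, 18.8 and 24.6 CPM anteriorly against 41.4, 49.2 and 50.7 CPM posteriorly under tamoxifen, 2.22-fold lower (log2 -1.15, SE 0.10). In controls it had 18.9, 19.2 and 17.2 CPM anteriorly against 43.6, 47.2 and 43.9 CPM posteriorly, 2.43-fold lower (log2 -1.28, SE 0.10). Nkd1 had regional log2 differences of -0.21 under tamoxifen and -0.06 in controls (SE 0.12 each), called only without anterior tamoxifen replicate 3 (-0.36). The ratio of Nkd1 to Nkd2 per kilobase was therefore 2.60 to 3.23 anteriorly against 1.48 to 1.59 posteriorly under tamoxifen, and 3.65 to 4.69 against 1.57 to 1.89 in controls. Axin2, the scaffold of the destruction complex that Wnt signals induce as a brake, had regional log2 differences of 0.23 under tamoxifen and 0.20 in controls (SE 0.09 each). It was called after removal of the trend, at 0.33 under tamoxifen and 0.23 in controls, and under tamoxifen also without anterior replicate 2 (0.29) or posterior replicate 3 (0.30). Frat2, which binds GSK3 and favours beta-catenin, was not called by region (log2 0.16 under tamoxifen and -0.31 in controls, SE 0.22 and 0.21).

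**Figure D2:**
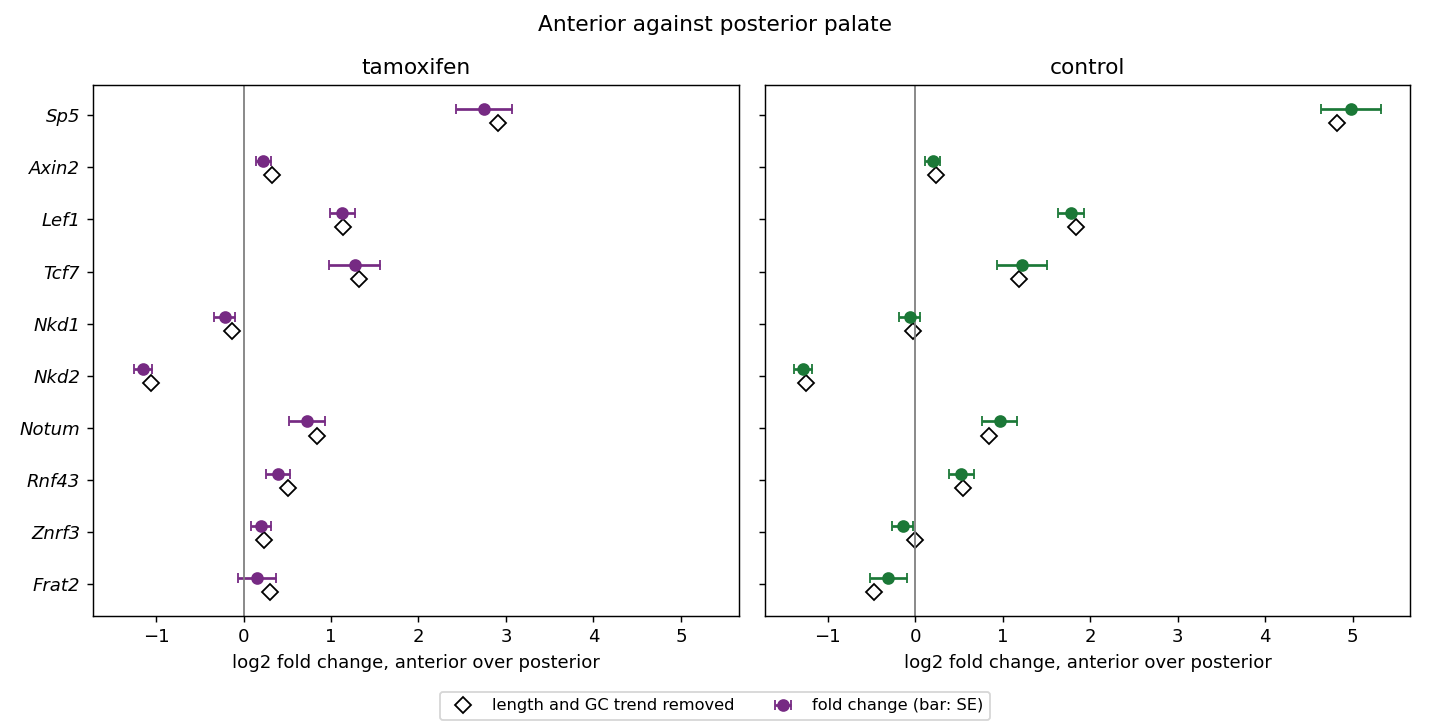
Log2 fold change, anterior over posterior, of the 10 members under tamoxifen (purple, left) and in controls (green, right), with SE bars and the value after removal of the length and GC trend as open diamonds. Sp5 stands at 2.75 under tamoxifen and 4.98 in controls, and Nkd2 at -1.15 and -1.28.

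Tamoxifen against control in the anterior palate, Sp5, Lef1 and Notum fell and Axin2 and Znrf3 rose, so the members did not move one way. Of the 10 members 5 were called, 2 higher and 3 lower, against 49.7% of all genes tested (25.6% higher and 24.0% lower). After removal of the trend 3 were higher and 2 lower, against 32.7% of all genes called (16.1% higher and 16.6% lower). The 3 tamoxifen and 3 control values did not overlap for 6 of 10 members, against 56.5% of all genes. The median log2 fold change of the members was -0.29, against -0.02 for all genes tested, and after removal of the trend it was -0.06 against 0.01. Nothing is read from these shares, since results of this comparison were known when the members were chosen.

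Sp5 had 7.35, 6.92 and 11.3 CPM under tamoxifen against 21.0, 28.3 and 27.5 CPM in controls. The highest tamoxifen library lay well below the lowest control. It fell 3.01-fold (log2 -1.59, SE 0.27), and 1.98-fold (log2 -0.99) with the trend removed. Lef1 had 43.4, 32.1 and 55.1 CPM under tamoxifen against 55.6, 64.8 and 65.8 CPM in controls, with the highest tamoxifen and lowest control values almost touching. It fell 1.43-fold (log2 -0.51, SE 0.14), and 1.61-fold (log2 -0.69) with the trend removed. Sp5, Lef1 and Znrf3 kept their anterior calls after removal of the trend and without any 1 library. Tcf7 had 41.4, 24.9 and 58.6 CPM under tamoxifen against 48.6, 57.2 and 53.3 CPM in controls. Its tamoxifen values spanned the whole control range, and its log2 fold change of -0.35 (SE 0.28; -0.16 with the trend removed) was called only without tamoxifen replicate 3 (-0.67).

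Notum had 8.73, 4.92 and 9.96 CPM under tamoxifen against 12.4, 11.2 and 13.3 CPM in controls, without overlap. It fell 1.56-fold (log2 -0.64, SE 0.20), but with the trend removed the log2 fold change was -0.14 and not called, and without control replicate 3 the call was lost at -0.58. Znrf3 had 31.7, 32.9 and 29.6 CPM under tamoxifen against 22.6, 21.6 and 15.0 CPM in controls. All its tamoxifen values lay above all controls, and it rose 1.59-fold (log2 0.67, SE 0.12), or 1.25-fold (log2 0.33) with the trend removed. Rnf43, with 27.4, 20.8 and 22.7 CPM under tamoxifen against 20.9, 24.2 and 19.9 CPM in controls, overlapped and was not called (log2 0.13, SE 0.14; 0.26 with the trend removed). Per kilobase the ratio of Znrf3 to Rnf43 was 0.791 to 1.08 under tamoxifen against 0.514 to 0.739 in controls. The trend was left in this ratio. With it removed, the log2 fold changes of Znrf3 and Rnf43 were close, at 0.33 and 0.26.

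Axin2 had 92.2, 85.6 and 105 CPM under tamoxifen against 78.4, 83.8 and 76.1 CPM in controls, a narrow separation in which the lowest tamoxifen value exceeded the highest control by under 2 CPM. It rose 1.19-fold (log2 0.25, SE 0.09), and 1.25-fold (log2 0.32) with the trend removed. The call was lost without control replicate 1 (log2 0.25) or 3 (0.22) or tamoxifen replicate 3 (0.16). Nkd2 had 20.2, 18.8 and 24.6 CPM under tamoxifen against 18.9, 19.2 and 17.2 CPM in controls (log2 0.20, SE 0.10). Nkd2 was not called, but was called with the trend removed (0.26) and without tamoxifen replicate 2 (0.29). Nkd1 had 66.5, 49.7 and 75.8 CPM under tamoxifen against 73.3, 71.3 and 81.9 CPM in controls (log2 -0.24, SE 0.12; -0.21 with the trend removed), and was called only without tamoxifen replicate 3 (-0.38). Both Naked relatives overlapped between treatments. Frat2 had 13.3, 13.6 and 12.3 CPM under tamoxifen against 14.2, 18.5 and 24.3 CPM in controls. All 3 tamoxifen values lay below all controls, but the log2 fold change of -0.54 (SE 0.22) was not called and was 0.02 with the trend removed. It was called without anterior control replicate 1 (-0.71), or without posterior control replicate 1 (-0.54) or 3 (-0.54).

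**Figure D3:**
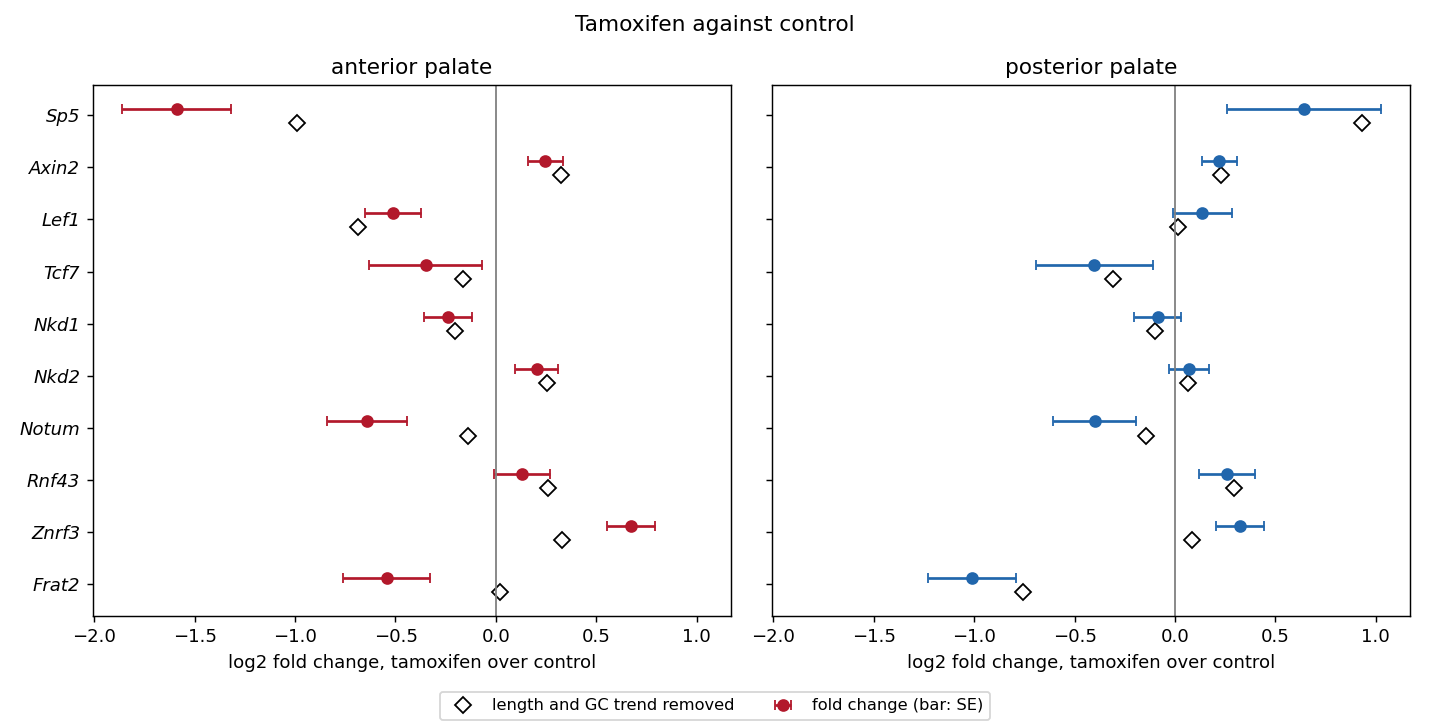
Log2 fold change, tamoxifen over control, of the 10 members in the anterior and posterior palate, with SE bars and the value after removal of the length and GC trend as open diamonds. Anterior Sp5 is at -1.59 and moves to -0.99 with the trend removed, while anterior Frat2 moves from -0.54 to 0.02.

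Within the anterior tamoxifen group most members ranked the libraries alike. Replicate 2 was the lowest library for 8 of 10 members and replicate 3 the highest for 7. This order was not counted over all genes, so nothing particular to the members is read from it. The coefficient of variation of Tcf7 was 40.4% in this group against 8.15% in anterior controls, that of Notum 33.4% against 8.56%, and that of Lef1 26.5% against 9.06%. Znrf3 and Frat2 ran the other way in both order and spread, with 5.33% against 20.9% and 5.17% against 26.6%. Spread was likewise not compared with that of all genes, so nothing particular to the members is read from it. Summed bone markers (Runx2, Sp7, Ibsp, Bglap and Spp1) were 291, 201 and 431 CPM in tamoxifen replicates 1, 2 and 3, against 304 to 357 CPM in anterior controls. None of these 5 markers was called. The order was not particular to bone. In the same replicates neuron sums were 86.1, 59.7 and 90.2 CPM, and nasal and olfactory sums 56.2, 45.6 and 57.8 CPM. Replicate 2 was instead the highest for skeletal muscle sums (7.10, 12.1 and 4.55 CPM) and palatal mesenchyme sums (2394, 2593 and 2405 CPM). The order differed among the other marker lists, and for cartilage sums (505, 425 and 407 CPM) replicate 2 was neither lowest nor highest. Summed nasal and olfactory markers were 45.6 to 57.8 CPM under tamoxifen against 61.9 to 81.7 CPM in anterior controls, with Neurog1 at 0 in all libraries and 1 of 5 tested markers lower. Summed epithelial markers were 829 to 1018 against 837 to 1059 CPM, with 3 of 8 higher and 1 lower. Palatal mesenchyme sums were 2394 to 2593 against 2025 to 2037 CPM, with 3 of 6 markers higher and 2 lower. Endothelial sums were 400 to 435 against 329 to 367 CPM, with 4 of 5 higher and 1 lower. Sums of Schwann cell and neural crest glia markers were 44.2 to 46.5 against 52.3 to 60.4 CPM, with 2 of 4 lower. The part of these tissues in the lower Sp5, Lef1 and Notum counts was not tested.

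Tamoxifen against control in the posterior palate, Frat2 fell, and Sp5, at its low posterior level, was not called. Of the 10 members 2 were called, 1 higher and 1 lower, against 29.0% of all genes tested (17.3% higher and 11.7% lower), and the values of 4 of 10 did not overlap, against 48.0%. After removal of the trend 1 was higher and 1 lower, against 17.9% (7.71% higher and 10.2% lower). Nothing is read from these shares either. The median log2 fold change was 0.10 for the members against 0.02 for all genes. Frat2 had 10.4, 13.6 and 11.1 CPM under tamoxifen against 16.1, 23.7 and 30.9 CPM in controls, without overlap. It fell 2.01-fold (log2 -1.01, SE 0.22), and 1.69-fold (log2 -0.76) with the trend removed, and kept the call without any 1 library. Frat1, its relative with the same GSK3-binding activity, had 8.88 CPM against 10.8 CPM there and was not called (log2 -0.28, SE 0.18, edgeR adjusted p = 0.26; -0.045 with the trend removed). The 2 genes resemble each other in sequence, and how reads matching both were assigned is not known here.

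Znrf3 had 28.4, 26.2 and 27.3 CPM under tamoxifen against 22.6, 21.8 and 21.0 CPM in posterior controls, without overlap. It rose 1.25-fold (log2 0.32, SE 0.12), a call that held only when nothing or anterior control replicate 1 or 3 was left out, with log2 values of 0.28 to 0.35 otherwise. With the trend removed the log2 fold change of Znrf3 was 0.09 and not called. Sp5 had 0.781, 0.914 and 2.14 CPM under tamoxifen against 0.883, 0.549 and 0.974 CPM in posterior controls (log2 0.64, SE 0.38; 0.93 with the trend removed, not called). Its groups overlapped, and tamoxifen replicate 3 alone stood above the controls. Axin2 had 76.0, 77.3 and 88.4 CPM against 74.0, 66.7 and 66.6 CPM, without overlap (log2 0.22, SE 0.09), and was called only with the trend removed (0.23). Notum had 4.10, 4.89 and 5.35 CPM against 7.26, 5.47 and 6.18 CPM, also without overlap (log2 -0.40, SE 0.21; -0.15 with the trend removed), and was called only without anterior tamoxifen replicate 2 (-0.42). The remaining 5 members, Lef1, Tcf7, Nkd1, Nkd2 and Rnf43, overlapped between treatments, with log2 fold changes from -0.40 for Tcf7 to 0.26 for Rnf43. With the trend removed they were 0.01, -0.31, -0.10, 0.07 and 0.29 in that order of genes, and none was called. Replicate 3 of the posterior tamoxifen group was the highest for 8 of 10 members, an order likewise not counted over all genes.

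The difference between the anterior and the posterior tamoxifen effect was tested in the same fit. For Sp5 it was -2.23 on the log2 scale (SE 0.47), for Lef1 -0.65 (SE 0.20), and for the other 8 members between -0.24 and 0.46. With the trend removed it was -1.92 for Sp5 and -0.70 for Lef1, and neither was called. Across genes this difference followed length and GC content too (rho 0.361 and -0.418). No member was called in edgeR, where 0 of all genes (0%) passed at an adjusted p under 0.05. At an unadjusted p under 0.05 edgeR had 2110 genes, 13.2% of those tested, 2 of them members. DESeq2 called 179 genes, with Sp5 the only member among them.

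Likeness to Sp5 was measured by Pearson's r of log2 CPM over the 12 libraries, which share their regions and treatments, so the values describe a common profile and carry no test. Among 11954 other genes with at least 5 CPM on average in 1 group, the 5 highest were Irx1 (0.985), Tfap2c (0.984), Foxf1 (0.982), Ptpru (0.981) and Krt14 (0.980). Irx1 and Foxf1 encode transcription factors of developing tissues, Tfap2c one of surface ectoderm, Ptpru a receptor phosphatase, and Krt14 a keratin of basal epithelium. Krt14 also stands in the list of epithelial markers. Irx1 averaged 20.6 CPM under tamoxifen against 43.2 CPM in controls anteriorly, and 5.74 against 5.22 CPM posteriorly. Krt14 averaged 272 against 332 CPM anteriorly and 139 against 125 CPM posteriorly. Of the members, Lef1 had the highest r with Sp5 (0.979), followed by Tcf7 (0.887), Notum (0.832) and Rnf43 (0.760). Axin2 stood at 0.532, Frat2 at -0.021, Nkd1 at -0.152 and Znrf3 at -0.179, and Nkd2 was the lowest at -0.925. Nkd2 lay opposite to Sp5 by region. With all libraries and the trend left in, it was not called under tamoxifen in either part. Tcf7 and Notum reached 0.94 with each other.

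**Figure D4:**
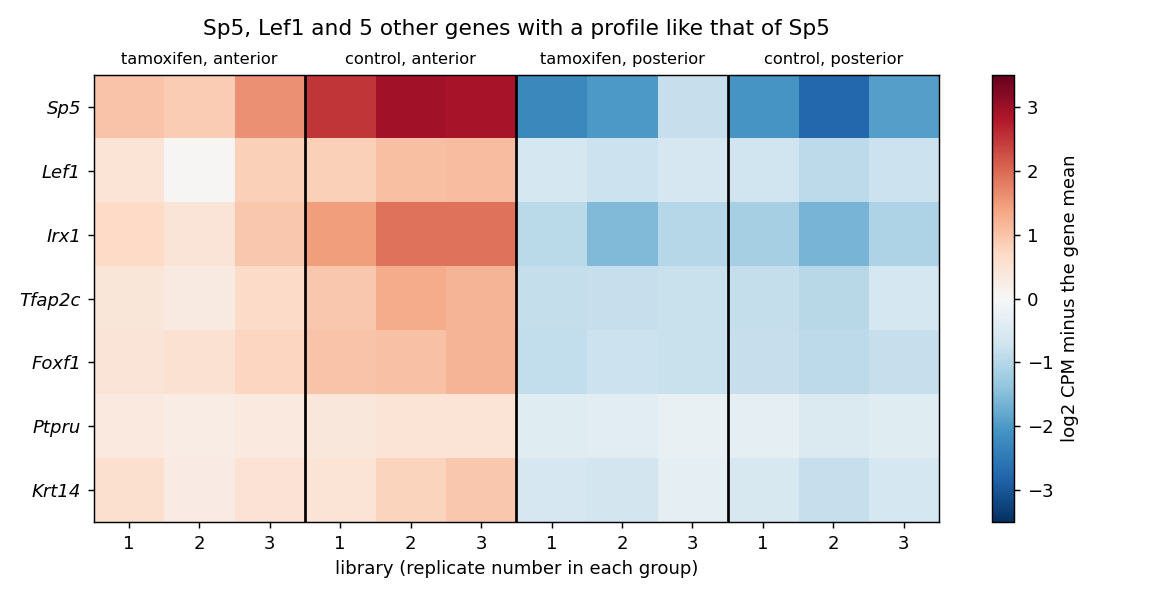
Log2 CPM minus the gene's own mean for Sp5, Lef1 and the 5 other genes most like Sp5 in each of the 12 libraries (red above, blue below). All 7 are higher in the 6 anterior than in the 6 posterior libraries, and Sp5 has the widest range.

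Beyond the members, 84 of 91 listed Wnt pathway genes were tested. In the anterior palate 43 were called under tamoxifen, 26 higher and 17 lower, against 49.7% of all genes tested, and 22 and 12 after removal of the trend, against 32.7%. In the posterior palate 31 were called, 25 higher and 6 lower, against 29.0%, and 16 and 6 after removal of the trend, against 17.9%. Their median log2 fold changes were 0.05 anteriorly and 0.09 posteriorly, against -0.02 and 0.02 for all genes. By region, 15 were higher and 17 lower anteriorly under tamoxifen, against 17.8% of all genes, and 20 higher and 18 lower in controls, against 23.3%. After removal of the trend these counts were 22 and 18 under tamoxifen, against 24.7%, and 26 and 17 in controls, against 26.9%. These lists too were drawn up with results of the libraries known. Genes named from them below were mostly picked for the smallest adjusted p in these same libraries. All adjusted p-values in the text come from the fit with the trend left in, and none belongs to a trend-removed value.

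At the cell surface, 9 of 18 receptors and co-receptors were higher and 1 lower under tamoxifen anteriorly, against 25.6% and 24.0% of all genes tested. Posteriorly 9 were higher and 0 lower, against 17.3% and 11.7%. Without the trend the receptors were 9 and 1 anteriorly, against 16.1% and 16.6%, and 7 and 0 posteriorly, against 7.71% and 10.2%. The same shares of all genes apply to the ligands below. No result is read from counts by role, since the lists were drawn up with results known. Ror1, a receptor for Wnt5a, averaged 76.1 CPM under tamoxifen against 26.6 CPM in anterior controls (log2 1.52, edgeR adjusted p = 1.1e-06; 1.08 with the trend removed). Ligands and the proteins that make or amplify them went both ways. Among 15 tested ligands 1 was higher and 4 lower anteriorly, but 3 higher and 1 lower after removal of the trend, where their median log2 fold change was 0.21 against -0.09 before it. Wnt5a, the non-canonical ligand, averaged 247 against 138 CPM (log2 0.84, edgeR adjusted p = 1.1e-06; 0.28 with the trend removed). In the posterior palate its log2 fold change of 0.24 turned to -0.11 with the trend removed. Wnt11 fell to 15.5 CPM under tamoxifen, against 24.8 CPM in anterior controls (log2 -0.68, edgeR adjusted p = 0.00028; -0.39 with the trend removed). Porcn, the enzyme that attaches the lipid Notum removes, fell 1.61-fold (log2 -0.69, edgeR adjusted p = 2.9e-05; -0.37 with the trend removed). Rspo1, whose product holds Rnf43 and Znrf3 back, had 70.8 against 99.8 CPM (log2 -0.49, edgeR adjusted p = 0.00091), but 0.05 with the trend removed.

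Inside the cell, 7 of 13 transducers were higher and 3 lower under tamoxifen anteriorly, against 25.6% and 24.0% of all genes tested. Posteriorly 6 were higher and 0 lower, against 17.3% and 11.7%. Without the trend the transducers were 6 and 3 anteriorly, against 16.1% and 16.6%, and 3 and 1 posteriorly, against 7.71% and 10.2%. The same shares of all genes apply to the nuclear partners below. Ctnnb1, which encodes beta-catenin, rose 1.26-fold anteriorly (log2 0.33, edgeR adjusted p = 0.0011; 0.31 with the trend removed). Apc and Gsk3b, of the destruction complex that Axin2 scaffolds, had log2 fold changes of 1.09 and 0.87 (edgeR adjusted p = 1.8e-06 and 5.5e-06), which were 0.31 and 0.23 with the trend removed. Of the 11 nuclear partners of beta-catenin 3 were higher and 5 lower anteriorly, and 1 and 2 posteriorly; after removal of the trend 1 was higher and 5 lower anteriorly, and 0 and 2 posteriorly. Tle2, a corepressor that TCF/LEF proteins recruit, fell to 49.0 CPM under tamoxifen, against 107 CPM in anterior controls (log2 -1.13, edgeR adjusted p = 1.7e-06; -0.90 with the trend removed). Tcf7l1, the family member known mostly as a repressor, fell to 167 against 259 CPM (log2 -0.63, edgeR adjusted p = 0.00025; -0.19 with the trend removed). Ccnd1, a cell cycle gene often listed as a Wnt target, had 127 against 123 CPM anteriorly and was not called (log2 0.05, edgeR adjusted p = 0.62; 0.04 with the trend removed).

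**Figure D5:**
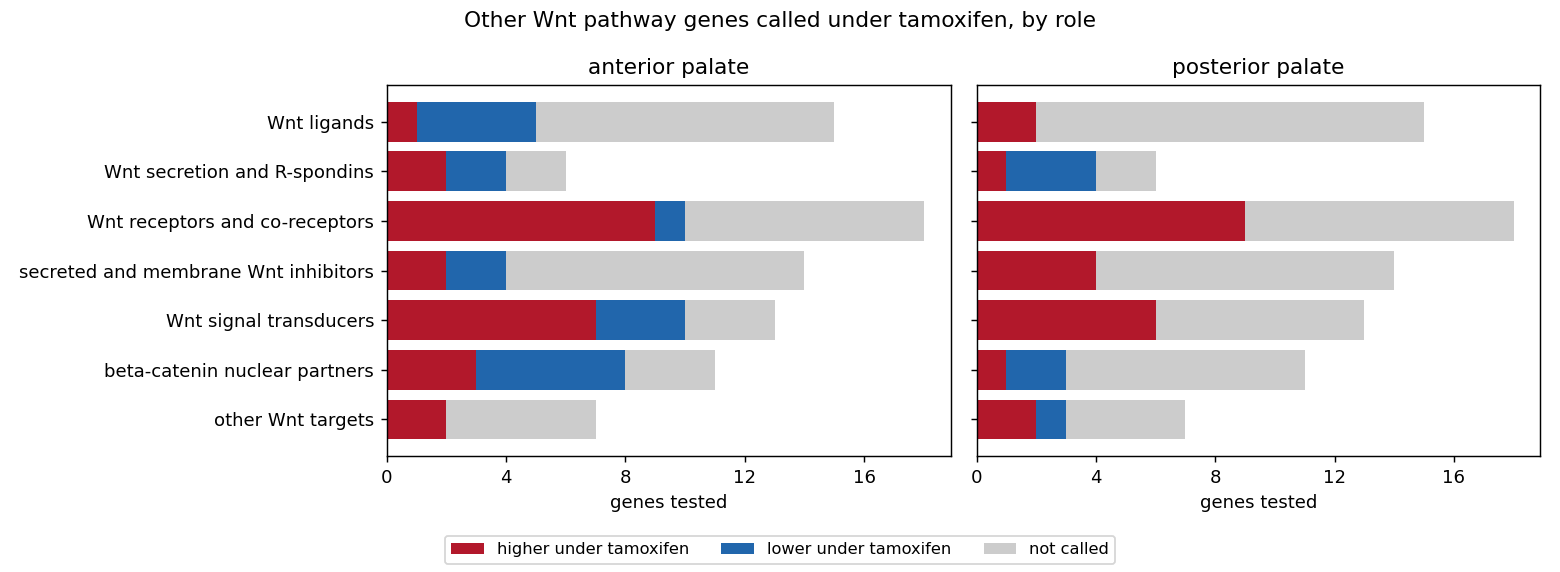
Number of tested Wnt pathway genes outside the 10 members that were called higher (red), lower (blue) or not called (grey) under tamoxifen, by role, in the anterior and posterior palate. Receptors have 9 higher in each region, and nuclear partners have 5 lower anteriorly and 2 posteriorly. Of all genes tested, 25.6% were called higher and 24.0% lower anteriorly, and 17.3% and 11.7% posteriorly.

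By region, Apcdd1, Lgr5 and Ccnd1 lay opposite to Sp5 and Lef1, as Nkd2 did. Frzb, Rspo1, Wnt2, Fzd10 and, at a low level, Fgf20 lay on the same side as Sp5, and Wnt11 lay opposite. Of 14 tested secreted and membrane inhibitors 3 were higher and 7 lower anteriorly under tamoxifen, against 7.60% and 10.2% of all genes tested. In controls 5 were higher and 4 lower, against 10.2% and 13.1%. These inhibitor counts were the same after removal of the trend. Apcdd1, a membrane inhibitor of Wnt signalling, averaged 108 CPM anteriorly against 292 CPM posteriorly under tamoxifen (log2 -1.43) and 93.5 against 285 CPM in controls (log2 -1.61), with edgeR adjusted p = 3.7e-08 and 1.5e-08. Lgr5, an R-spondin receptor and Wnt target, averaged 28.3 against 68.8 CPM under tamoxifen (log2 -1.28) and 19.0 against 59.7 CPM in controls (log2 -1.65), with edgeR adjusted p = 6.7e-07 and 5.9e-08. Ccnd1 averaged 127 against 276 CPM under tamoxifen (log2 -1.11) and 123 against 277 CPM in controls (log2 -1.18), with edgeR adjusted p = 4.3e-08 and 3e-08. Frzb, a secreted inhibitor, lay on the anterior side, with 304 against 125 CPM under tamoxifen (log2 1.28) and 276 against 120 CPM in controls (log2 1.21), edgeR adjusted p = 2.1e-09 and 5.4e-09.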

How the data were processed

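RNA-seq libraries of anterior and posterior palatal shelves (4 groups of 3) were analysed from raw counts per gene symbol, 1 file per library, as the authors deposited them. The submitters' processing notes name HISAT2, StringTie and build mm9. Their versions, the counter, the gene annotation and the strandedness are likewise not given in the sources used here. Small counts (1 to 100) were even in 57.1 to 60.1% of cases per library, so both mates of a pair may have been counted. Because strand is unknown, reads of overlapping genes cannot be told apart; of the genes overlapping a member, the counts list 1110028F11Rik, within Rnf43. All 12 pairs of replicates differed beyond sampling noise (chi-square per degree of freedom at least 10.3). Every library held both Xist (154 to 446 CPM) and Y-linked transcripts (49.3 to 115 CPM summed over 4 genes).

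In R 4.3.3, edgeR 4.0.16 was run with filterByExpr by group, TMM scaling and a robust quasi-likelihood fit of 1 mean per group over 12 libraries, with Benjamini-Hochberg adjustment and a threshold of 0.05. CPM were computed with these scaled library sizes; a prior count of 2 was used for correlations. Errors are SD over 3 libraries or the SE of the log2 fold change. This SE is the absolute log2 fold change divided by the square root of the quasi-likelihood F statistic. Alternatives were DESeq2 1.42.0 with its size factors, RLE scaling in edgeR, no expression filter, the replicate number as a block, removal of a length and GC trend (splines with 4 degrees of freedom per library) with and without that block, and leaving out each library. Length and GC came from the longest GENCODE vM21 transcript (GRCm38, not the authors' build); 15845 of 15958 tested genes (99.3%) had both. The fits were tested on simulated data.

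Members and gene lists were chosen with earlier results of these data known. Besides the 10 members, the text names per comparison and list up to 2 called genes with the smallest adjusted p, a fixed set (Ctnnb1, Tcf7l1, Tcf7l2, Frat1, Ccnd1, Sp8), the region markers and the 6 genes most like Sp5; not all of these are printed, and some results are not reported here.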

Additional observations from a re-analysis of the deposited data

How the results depend on the processing

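DESeq2, RLE scaling, no expression filter and the replicate block gave every member the same direction as reported; DESeq2 added 3 member calls and RLE scaling lost 1. The replicate numbers in the titles were not found to pair libraries: of 18 same-numbered pairs 2 had correlated deviations with r over 0.1, and 7 matched their own number best. With the numbers as a replicate block, 1 member call was gained, anterior Frat2 under tamoxifen (log2 -0.50), and no count moved by over 1.5 times.

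After removal of the length and GC trend, genes called under tamoxifen numbered 5224 against 7924 anteriorly and 2854 against 4625 posteriorly; with the block as well they numbered 5031 and 2728, and the other Wnt genes called posteriorly 19 against 31. Reversed under tamoxifen anteriorly, without and with the block, were Frat2 (0.021 and 0.043, against -0.54), Rspo1 (0.053 and 0.054, against -0.49) and Wisp1 (-0.016 and -0.017, against 0.38), and posteriorly Wnt5a (-0.11 and -0.11, against 0.24). For the difference of tamoxifen effects, edgeR called 0 genes, the trend with the block 1, and DESeq2 179, with 1 member and 3 other Wnt genes. RLE scaling left 1 member called posteriorly under tamoxifen.

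Leaving out each library in turn gave 6553 to 7961 genes called anteriorly under tamoxifen, 2714 to 5485 posteriorly and 0 to 6 for the difference. The posterior counts moved by over 1.5 times without con_PP replicate 1 (2714), con_PP replicate 3 (2830) or TAM_PP replicate 1 (3045). Members called numbered 3 to 6 anteriorly (3 without con_AP replicate 3), 1 to 2 posteriorly and 3 to 7 by region under tamoxifen (3 without TAM_PP replicate 1 or 2). By region under tamoxifen 2090 to 3089 of all genes were called in the same fits. Other Wnt genes called posteriorly numbered 19 to 35, the lowest without con_PP replicate 1. The regional log2 difference of Frat1 under tamoxifen ranged from -0.089 to 0.19 and that of Znrf3 in controls from -0.29 to 0.019.

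Posterior Sp5, at 2.14 CPM or less, rests on few counts. With 3 libraries a group, every member but Sp5 and Lef1 crossed the threshold in at least 1 comparison when 1 library was left out. The cause of each change of call was not tested.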
